A study of Homo sapiens with 6 samples.

Results

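The 4 tumours described here, of 6 in the series, were grown from PATU cells, a line of pancreatic ductal adenocarcinoma, and were chosen by their label as off doxycycline. The cells carried a short hairpin against ME3, a mitochondrial malic enzyme, that doxycycline induces; in these tumours it was left uninduced. All 4 share the line, the hairpin construct and the site under the skin of nude mice, which lack mature T cells of thymic origin but keep other host cells such as fibroblasts, vessels and myeloid cells. The series concerns loss of the malic enzyme gene ME2 in pancreas cancer. The measurements below describe 1 line in 1 kind of host, with no comparison between treatments, so no treatment effect was tested. Values after ± are SDs over the 4 tumours (n = 4), and the spread is that between tumours of a line.

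Ductal adenocarcinoma is an epithelial cancer of the exocrine pancreas, in which the tumour suppressors CDKN2A and SMAD4 are often lost. Its cell lines range from a classical state, with gastrointestinal transcription factors, trefoil factors and mucins, to a basal-like or mesenchymal state in which those genes are low and adhesion and matrix genes are high. A xenograft adds host cells, whose reads are counted as human wherever the sequences are close enough to align.

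The column totals were 26885699, 24812589, 23855338 and 26108647 counts in tumours 1 to 4. Levels are given as CPM, counts per 1000000 of these totals. For some comparisons between genes, counts were also divided by exon length. They were then scaled to sum to 1000000 over protein-coding genes, a unit named coding TPM here. Where levels of different genes are given in CPM only, their order also depends on gene length. No pair of tumours held the same library: each pair's chi-square over genes, divided by its degrees of freedom, was 9.74 to 22, where sampling noise alone gives about 1. Of 16073 genes with a mean of at least 1 CPM, 81 differed 2-fold or more between tumours 2 and 3, the closest pair, and 322 between tumours 1 and 3.

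A total of 14772 genes were at 1 CPM or more in all 4 tumours, among them 11873 of 19263 protein-coding genes, or 61.6%. No count in any tumour was found for 19944 of 57773 genes. Counts were concentrated: 55 genes with a mean of at least 1000 CPM held 21.4% of all counts, and the 20 most counted genes held 16.8 ± 1.06%. Protein-coding genes took 82 ± 0.959% of counts, genes annotated as long noncoding 6.09 ± 0.365% and mitochondrial mRNAs 0.252 ± 0.0222%. The long noncoding class follows the annotated types, and so includes the structured RNAs RPPH1 and RMRP at 14254 and 13037 CPM.

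None of the 6 most counted genes was annotated as protein coding. RN7SK, the RNA that holds the elongation kinase P-TEFb inactive, was at 36699, 33157, 32811 and 32695 CPM in tumours 1 to 4. RPPH1 and RMRP, the RNA parts of RNase P and RNase MRP, averaged 14254 and 13037 CPM, and MALAT1 and NEAT1, the long RNAs of nuclear speckles and paraspeckles, 13242 and 4930 CPM. All of these were at high level in every tumour, with a CV (SD as a percentage of the mean) of 5.66% for RN7SK to 20.5% for MALAT1. RNU4-2 and RNU4-1, copies of the spliceosomal U4 RNA, averaged 3262 and 2317 CPM and SNORA73B, a small nucleolar RNA, 2532 CPM. The 3 further identifiers of the top 20, ENSG00000258486, ENSG00000265150 and ENSG00000266037, at 32729, 17919 and 1859 CPM, carry no symbol in the sources used here. Together the 11 entries of the top 20 that were not annotated as protein coding held 14 ± 0.954% of counts.

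**Figure D1:**
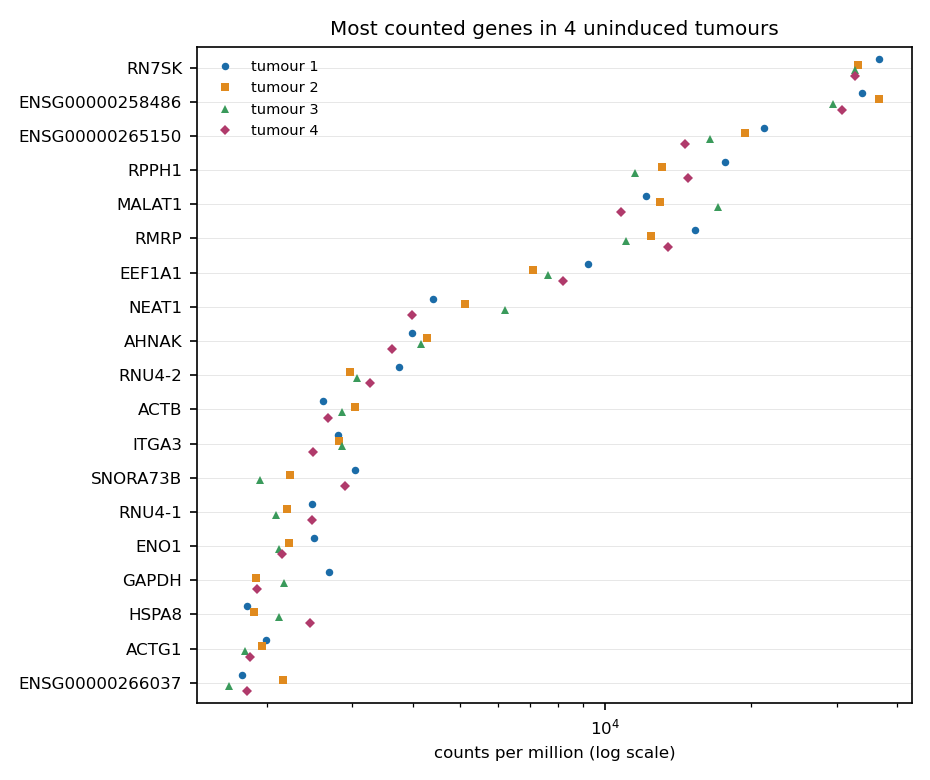
CPM on a log axis for genes among the 20 with the highest mean, 1 marker per tumour. The markers of a gene lie close together, and RN7SK and ENSG00000258486 stand highest at means of 33841 and 32729 CPM.

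The 9 protein-coding genes among the 20 were dominated by translation, cytoskeleton and glycolysis. EEF1A1, the factor that brings aminoacyl-tRNA to the ribosome, was at 9201, 7074, 7611 and 8157 CPM. AHNAK, a giant membrane scaffold protein, averaged 4019 CPM, ACTB and ACTG1, the cytoplasmic actins, 2797 and 1899 CPM, and ITGA3, the laminin-binding integrin chain alpha 3, 2745 CPM. HSPA8, the constitutive HSP70 chaperone, averaged 2070 CPM, with ENO1 and GAPDH of glycolysis at 2251 and 2169 CPM. Divided by length the order changed: TMSB10, an actin-monomer-binding peptide, led at 10654 coding TPM, ahead of EEF1A1 at 7763, the ferritin light chain FTL at 7188, the ribosomal protein RPS12 at 5945 and the calcium-binding protein S100A6 at 5226 coding TPM.

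The epithelial identity of the tumours was partial. Of 27 epithelial junction and keratin genes matched, 19 were at 1 CPM or more in every tumour, against 61.6% of protein-coding genes. KRT8 was at 878, 1043, 883 and 933 CPM, and its partner KRT18 at 478, 503, 465 and 435 CPM. The desmosomal plaque protein DSP averaged 468 ± 14.9 CPM and the protease inhibitor SPINT2 344 ± 18.8 CPM. EPCAM, the epithelial adhesion molecule, stood far lower at 27.6 ± 2.8 CPM and CDH1, or E-cadherin, at 11.8 CPM; in coding TPM, EPCAM was at 63.1 against 843 for KRT18. The epithelial splicing factors ESRP1 and ESRP2 averaged 1.05 and 2.56 CPM. ELF3 and OVOL1, epithelial transcription factors, stayed under 1 CPM in every tumour, and GRHL2, another, had no count.

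The label of ductal adenocarcinoma was not matched by several usual ductal markers. KRT19, the keratin of pancreatic ducts, had no count among 101662273 counts in the 4 tumours together, which allows a level of up to 0.0295 CPM by counting error alone. Its exons overlap no other annotated gene in GENCODE 29. KRT7, the other ductal keratin, was at 1.52, 0.846, 0.838 and 0.23 CPM. CFTR, the chloride channel of duct cells, averaged 0.0296 CPM and TSPAN8 had no count. Of 15 ductal and biliary genes matched, 7 were under 1 CPM in every tumour. Another 7 were at 1 CPM or more in every tumour, against 61.6% of protein-coding genes. The latter were led by ANXA4, a widely expressed annexin, at 87.4 ± 8.48 CPM, with BICC1, MUC1 and SOX9 at 12.6, 12.4 and 10 CPM.

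Genes of the classical subtype were close to absent. Of 24 such genes, 22 were under 1 CPM in every tumour and 8 had no count, among them the trefoil factors TFF1, TFF2 and TFF3 and the adhesion molecule CEACAM6. LYZ, lysozyme, and PRR15L, at means of 5.31 and 2.62 CPM, were the exceptions, and LYZ is also a myeloid marker. Of 24 basal-like genes matched, 11 were under 1 CPM in every tumour. In every tumour 10 of them were at 1 CPM or more, against 61.6% of protein-coding genes. For classical genes this was 2 of 24, and for squamous genes 6 of 21. Basal-like genes present included the glucose transporter SLC2A1 at 361 ± 43.4 CPM, S100A2 at 34.8 ± 5.86 CPM, FAM83A at 16.5 CPM and CTSV at 10.9 CPM. Squamous genes were mostly silent too: 15 of 21 were under 1 CPM in every tumour, including TP63, the master factor of squamous epithelium, and KRT5, while the desmosomal cadherin DSC3 was at 100 ± 6.13 CPM.

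Several mesenchymal genes were high beside the keratins. Of 22, 16 were at 1 CPM or more in every tumour, against 61.6% of protein-coding genes. The list held 0.386% of counts against 0.324% for the epithelial list. NT5E, the ecto-nucleotidase CD73, was at 1189, 1238, 1276 and 1204 CPM. Its mean of 1226 CPM was part of a list sum of 3865 CPM, against 3238 CPM for the epithelial list. The order of these sums rests on NT5E, and the lists differ in size, with 22 and 27 genes matched. VIM, or vimentin, averaged 632 ± 77.2 CPM and the receptor kinase AXL 567 ± 39.1 CPM. ZEB1 and ZEB2, repressors of E-cadherin, averaged 56 and 57 CPM. Other factors of the transition to a mesenchymal state were low. TWIST2 and FOXC2 were under 1 CPM in every tumour, and SNAI1, TWIST1 and SNAI2 averaged 0.974, 0.775 and 0.663 CPM. CDH2, or N-cadherin, averaged 10.5 CPM, beside 11.8 CPM for CDH1. Vimentin and the ZEB genes are also expressed by host fibroblasts and leukocytes; in bulk tumours, fewer cells of a type and less RNA per cell cannot be told apart.

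Other pancreatic lineages were nearly absent. Of 24 acinar genes matched, 23 were under 1 CPM in every tumour, and trypsinogen PRSS1, lipase PNLIP and the acinar factor PTF1A had no count; AMY2B averaged 1.14 CPM. Of 23 islet genes, 17 were under 1 CPM in every tumour, with no count for the hormones INS, GCG and SST. The islet and eye factor PAX6 averaged 9.28 ± 0.781 CPM, ABCC8, the sulfonylurea receptor, 5.78 CPM and GHRL, the ghrelin gene, 3.79 CPM. Hepatocyte and neuronal lists had 13 of 18 and 12 of 17 members under 1 CPM in every tumour, and cancer-testis and germline genes 18 of 21. Acinar, islet, hepatocyte and neuronal genes at 1 CPM or more in every tumour numbered 0, 5, 2 and 5, against 61.6% of protein-coding genes.

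**Figure D2:**
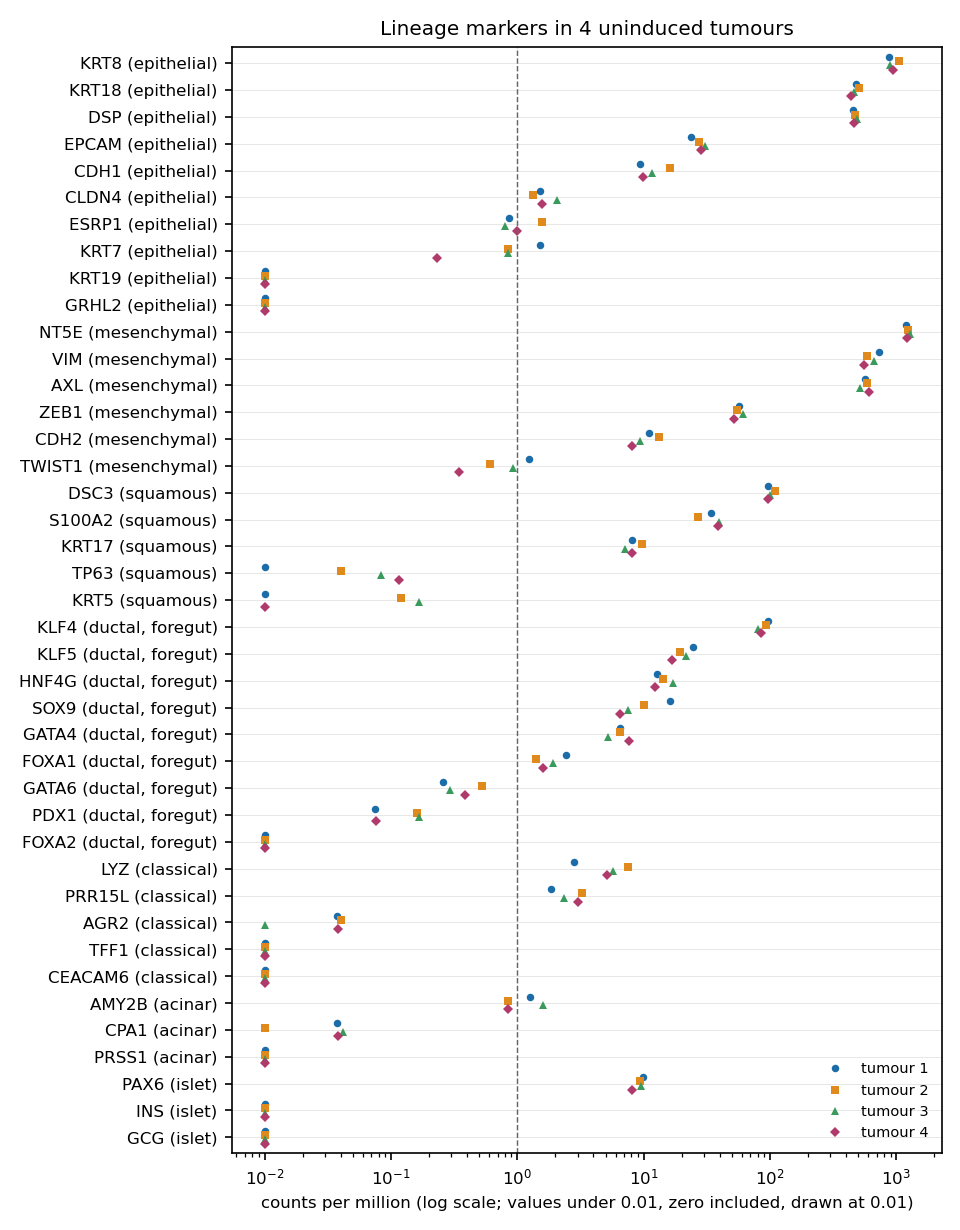
CPM on a log axis for lineage markers, 1 marker per tumour, with a dashed line at 1 CPM and values under 0.01 drawn at 0.01. KRT8 and KRT18 lie with NT5E and VIM on the right, while KRT19, GRHL2, TFF1, FOXA2 and PRSS1 lie at the left edge in all 4 tumours.

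Transcription factors of foregut and pancreatic epithelium split into a small expressed set and a larger silent set. Of 25 matched, 10 were at 1 CPM or more in every tumour, against 61.6% of protein-coding genes. KLF4, a Kruppel-like factor of epithelia, was highest at 97.1, 92.5, 80.4 and 85.2 CPM, ahead of KLF5 at 20.7 ± 3.33 CPM and HNF4G, the gamma form of hepatocyte nuclear factor 4, at 14.1 ± 2.13 CPM. HHEX averaged 7.22 CPM, GATA4 6.48 CPM, CDX2 2.76 CPM, MNX1 2.6 CPM and FOXA1 1.84 CPM. SOX9, the progenitor and duct factor, was at 16.2, 9.99, 7.46 and 6.47 CPM, a graded series from tumour 1 down to tumour 4. ONECUT2, which specifies hepatic and pancreatic endoderm, had the widest spread of those above 1 CPM on average, at 1.45, 2.74, 4.36 and 12.8 CPM, highest in tumour 4.

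The silent set held the factors that mark the classical state. GATA6 averaged 0.365 CPM, PDX1, the pancreatic master factor, 0.12 CPM and HNF4A 0.0105 CPM. FOXA2, CDX1 and SOX17 had no count. ELF3, GATA5, NR5A2, PROX1 and FOXA3 averaged 0.57, 0.535, 0.378, 0.28 and 0.268 CPM. ONECUT1, SOX2 and EHF were at 0.0575, 0.0306 and 0.0198 CPM. Thus HNF4G exceeded HNF4A, and GATA4 exceeded GATA6, in each of the 4 tumours.

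Among genes often altered in this cancer, MYC and the genes of the CDKN2A locus were expressed in every tumour. MYC was at 194, 180, 176 and 213 CPM. CDKN2A averaged 22.5 CPM, its neighbour CDKN2B 14.3 CPM and MTAP, a methionine salvage enzyme at the same locus, 63 ± 6.54 CPM. DMRTA1, further along that locus, averaged 10.8 CPM. None of these 4 neighbours was silent.

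SMAD4, the common mediator of TGF-beta signalling, was low at 3.52 CPM, less than all but 2 of the 25 genes of the list. Its neighbours on the chromosome were also present: ME2, the malic enzyme after which the series is named, averaged 20.1 CPM, the tRNA-processing enzyme ELAC1 9.47 CPM and MEX3C 37.8 CPM. DCC, at the same region, was at 0.0392 CPM, and RNF43, a brake on WNT receptors, at 0.108 CPM. Exons of other genes cover 73.9% of the exon bases of RNF43, so its low count, and with it the rank of SMAD4 in the list, is uncertain as a level. ME3, the target of the uninduced hairpin, averaged 41 CPM and the cytosolic enzyme ME1 43.2 CPM. Counts give no copy number, and whether these values come from tumour or host cells was not tested.

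DNA repair and chromatin genes were expressed in every tumour. ATM, the DNA-damage kinase, averaged 506 ± 21 CPM, BRCA2 167 ± 15.5, BRCA1 50.6 and PALB2 27 CPM. The chromatin regulators KMT2D, KMT2C, ARID1B, ARID1A and KDM6A averaged 179, 158, 130, 111 and 81.6 CPM. Divided by length their order changed, to 50.5, 45.4, 16.8, 40.3 and 66 coding TPM, and ATM was at 122 coding TPM. ARID1A was lowest in tumour 1, at 76.4 CPM against 127, 119 and 123 CPM. TGFBR2, TGFBR1 and the kinase STK11 averaged 90.3, 89.7 and 69.4 CPM.

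Growth factor receptors were led by EGFR at 397, 425, 365 and 406 CPM among the ERBB family, with ERBB2 at 90.7 ± 2.11 CPM and ERBB3 at 4.43 CPM. The feedback inhibitor ERRFI1 averaged 183 CPM and the ligand HBEGF 40.7 CPM, while the ligands AREG, EGF and EREG stayed under 1 CPM in every tumour. NRG1, a ligand of ERBB3 and ERBB4, was at 11.2 CPM in tumour 1 and at 3.06, 2.18 and 2.11 CPM in the others, and ERBB4 at 2.38 CPM in tumour 1 and at 0.564, 0.461 and 0.46 CPM. Tumour 1 alone was high for both. Of the other receptor kinases, AXL, EPHA2, MET and FGFR1 averaged 567, 313, 303 and 144 CPM, and RET and KIT were under 1 CPM in every tumour.

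Most targets downstream of these receptors were counted in every tumour. Of 14 ERK feedback genes, 13 were at 1 CPM or more in every tumour, against 61.6% of protein-coding genes. They were led by EPHA2, the cyclin CCND1 at 239 ± 17.7 CPM, the phosphatase DUSP5 at 121 ± 14.8 CPM and the ETS factor ETV5 at 106 ± 9.18 CPM. All 15 YAP and TEAD genes were at 10 CPM or more on average. All were also at 1 CPM or more in every tumour, against the same 61.6%. Among them were TEAD1 at 619 ± 86.9 CPM, AXL, AMOTL2 at 426 ± 43.6 CPM and YAP1 at 316 ± 25.4 CPM. Of these 15 genes 11 were highest in tumour 4, against 29.7% of all 16073 genes. CYR61, a matricellular protein that YAP induces, was at 188, 251, 233 and 330 CPM. Of 24 genes of the NF-kB pathway and its cytokines matched, NFKBIA, BIRC3, NFKB2 and ICAM1 led at 217, 188, 160 and 133 CPM, and the chemokines CXCL10 and CXCL5 were at 0.16 CPM and without a count.

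Genes of adhesion to laminin were at high level: 27 laminin, integrin and basement membrane genes together held 0.825% of counts. ITGA3 was at 2810, 2825, 2856 and 2489 CPM, its relative ITGA6 at 819 ± 97.6 CPM and their partner ITGB1 at 765 ± 47.8 CPM; the laminin chain LAMB2 averaged 567 ± 59.2 CPM. Among proteases and inhibitors, the plasminogen activator PLAU averaged 703 ± 67 CPM, the cathepsin CTSB 358 CPM and the sheddase ADAM10 231 CPM, while the collagenase MMP1 stayed under 1 CPM on average and MMP7 had no count. Mucin and secretory genes were mostly low: 18 of 26 were under 1 CPM in every tumour. At 1 CPM or more in every tumour were 5 of the 26, against 61.6% of protein-coding genes. MSLN led the list at 30.2 CPM, and MUC16 was at 5.28, 19.5, 27.1 and 16.9 CPM.

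Glycolytic genes together held 1.22% of counts. ENO1, GAPDH, LDHA and ALDOA averaged 2251, 2169, 1681 and 1303 CPM. LDHA, the muscle-type subunit of lactate dehydrogenase, was at 1710, 1673, 1737 and 1606 CPM, while LDHB, the heart-type subunit, averaged 0.0802 CPM with 8 counts in all 4 tumours. In GENCODE 29, exons of other genes cover 33.4% of the exon bases of LDHB.

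Nuclear genes of mitochondrial metabolism were expressed throughout. All 63 nuclear genes of the respiratory chain and all 25 genes of the citric acid cycle and malate metabolism averaged 10 CPM or more. Each was also at 1 CPM or more in every tumour, against 61.6% of protein-coding genes. Their median CVs were 6.23% and 6.16%, against 7.72% for all genes averaging 10 CPM or more. ATP5A1 and ATP5B, the ATP synthase subunits alpha and beta, averaged 718 and 711 CPM and SDHA 342 CPM; OGDH, MDH1 and CS followed at 170, 155 and 143 CPM. Transcripts made in mitochondria had a higher median CV, 16.6%: MT-ND4 was at 89.5, 133, 160 and 126 CPM and MT-CO1 at 822, 971, 1005 and 963 CPM. Not all members varied so much. The well counted MT-CO1, MT-CO3 and MT-CO2 had CVs of 8.62%, 4.76% and 5.83%, and the list sum 8.81%. Of the 13 mitochondrial mRNAs, 11 were highest in tumour 3 and 9 lowest in tumour 1, against 28.9% and 36% of all genes.

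Lipid, amino acid and redox genes were expressed throughout. Among sterol genes STARD4, HMGCS1 and SQLE averaged 252, 208 and 202 CPM, and 22 of 24 members averaged 10 CPM or more. At 1 CPM or more in every tumour were 23 of the 24, against 61.6% of protein-coding genes. SCD, the stearoyl-CoA desaturase, averaged 516 ± 35.1 CPM and FASN 276 ± 29.4 CPM. SLC7A11, the cystine importer, was at 241, 425, 408 and 430 CPM, lowest in tumour 1, while SLC3A2, its partner chain, stayed between 198 and 216 CPM. FTL, the thioredoxin reductase TXNRD1, SLC7A11 and the peroxiredoxin PRDX1 led the NRF2 and redox list at 1094, 520, 376 and 352 CPM, and AKR1B10 was at 0.0515 CPM. FTH1, the ferritin heavy chain, was counted at 55.1 CPM; it has many near-identical pseudogenes that can take or share its reads, so this level is uncertain.

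Genes of protein synthesis held more counts than any other list of mRNAs examined. The 78 cytosolic ribosomal protein genes held 4.3% of counts, led by RPLP0, RPL4, RPS18 and RPSA at 1486, 1266, 1210 and 1193 CPM. Of these genes 77 were at 1 CPM or more in every tumour, against 61.6% of protein-coding genes. EEF1G, a subunit of elongation factor 1 that every cell uses, had only 3 counts in the 4 tumours, and exons of other genes cover 99.9% of its exon bases. EIF4A1, at 14.5 CPM, has 48.6% of its exon bases covered. Low counts of such genes, and of the myeloid gene CD68, whose exon bases are covered to 85.8%, are uncertain as levels, since reads shared by overlapping genes may go uncounted. Among chaperones HSPA8, HSP90AB1 and HSP90AA1 averaged 2070, 1477 and 1212 CPM and CCT5 643 CPM; CANX, HSP90B1, HSPA5 and CALR of the endoplasmic reticulum averaged 1453, 824, 594 and 435 CPM.

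All 27 replication genes matched and all 28 mitotic genes averaged 10 CPM or more. All of them were also at 1 CPM or more in every tumour, against 61.6% of protein-coding genes. MCM4, RRM1, MCM2 and MCM7 averaged 299, 190, 177 and 174 CPM, and TOP2A, ASPM, CENPF and CCNB1 402, 338, 327 and 264 CPM. The proliferation marker MKI67 was at 227, 258, 246 and 299 CPM. Of the replication genes 26, and of the mitotic genes 26, were highest in tumour 4, against 29.7% of all genes, and the summed level of the replication list was 2291, 2340, 2286 and 2800 CPM. The flap endonuclease FEN1 was at 70.6, 81, 79 and 119 CPM. Replication-dependent histone mRNAs, most of which end without a poly(A) tail, were counted at high level, with HIST1H1C, HIST1H1E, HIST1H2BK and HIST1H2AC at 449, 306, 227 and 213 CPM. Near-identical histone and ribosomal protein copies make single members of those families less certain than their sums.

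Most genes varied little between tumours. Over 9695 genes with a mean of at least 10 CPM the median CV was 7.72%, against 2.99% for the median CV that counting error alone gives, and 68.9% of genes had a CV under 10%. The 10 steadiest genes above a mean of 100 CPM were RBFOX2, RLIM, CSNK1A1, KIAA1191, TMEM59, ZBTB38, MED23, HNRNPK, RBMX and BRD9. RBFOX2, a splicing regulator, was at 152, 151, 152 and 152 CPM, and the RNA-binding protein HNRNPK at 772, 780, 790 and 782 CPM. The CV of RBFOX2 was 0.36% on column totals and 2.48% with TMM-scaled library sizes, so the rank of the steadiest genes rests on the scaling. In 9 of these 10 genes the CV was below that of counting error alone, 1.61% for RBFOX2, so their order is not resolved at this depth.

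At the other end, 445 genes, or 4.59%, had a CV of at least 20% and 40 genes, or 0.413%, of at least 50%. These 40 were highest in tumour 4 in 15 cases, in tumour 1 in 13, in tumour 3 in 10 and in tumour 2 in 2. The 20 with the largest CV were CKM, RNU1-3, MYH4, ATP2A1, MYH1, MYH2, PYGM, ACTA1, ACTN3, RYR1, ACTC1, RN7SL4P, NEB, LPL, TTN, HSPA6, TNC, COL1A1, ENO3 and COL3A1. Of these, 10 belong to the skeletal muscle list, and the small RNAs RNU1-3 and RN7SL4P were each high in a different tumour.

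**Figure D3:**
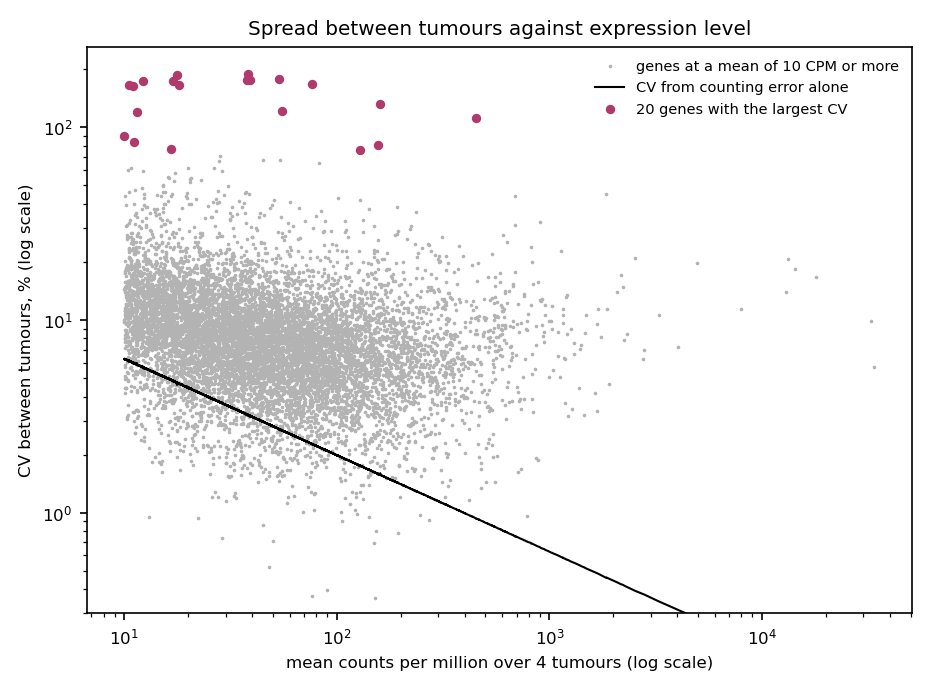
CV between the 4 tumours in percent against mean CPM, both on log axes, for 9695 genes (grey), with the CV expected from counting error alone as a black line. Most genes lie above the line, around the median of 7.72%; the 20 genes with the largest CV (purple) lie at the top and run into the rest without a gap.

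Skeletal muscle genes set tumour 4 apart. CKM, muscle creatine kinase, was at 0, 6.93, 0.168 and 145 CPM, ACTA1, skeletal actin, at 1.41, 31.8, 4.4 and 268 CPM and MYH4, a fast myosin heavy chain, at 0.0744, 17.6, 0.168 and 196 CPM. Tumour 4 was highest for each, tumour 2 came next, and tumours 1 and 3 were near 0. TTN, the giant sarcomere spring titin, was at 153, 281, 165 and 1210 CPM and so was counted in every tumour. Of 25 muscle genes with a mean of at least 1 CPM, 24 were highest in tumour 4 and 23 lowest in tumour 1, against 29.7% and 36% of all genes; the 30 genes summed to 318, 592, 349 and 2806 CPM. Without tumour 4 the mean of that sum is 419 CPM in place of 1016 CPM. MYL2 and MYL3, light chains of slow muscle, and MB, myoglobin, averaged 0.175, 0.405 and 0.0507 CPM. Near-identical copies among the myosin and actin genes leave the split between members uncertain.

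Fat-cell genes set tumour 3 apart in the same way, at lower levels. GPD1, glycerol-3-phosphate dehydrogenase, was at 0.26, 0.766, 18.6 and 1.19 CPM and LPL, lipoprotein lipase, at 2.01, 3.06, 31.4 and 9.35 CPM. FABP4 and PLIN1, the lipid carrier and the droplet coat of adipocytes, were at 5.11 and 4.49 CPM in tumour 3 and under 1 CPM in the others. The 11 adipocyte genes summed to 10, 10.2, 53.2 and 16.5 CPM, and 5 of the 6 with a mean of at least 1 CPM were highest in tumour 3, against 28.9% of all genes. Without tumour 3 the mean of that sum is 12.2 CPM in place of 22.5 CPM. ADIPOQ, the adipocyte hormone adiponectin, had no count, but exons of other genes cover 46.2% of its exon bases. DGAT2, which makes triglyceride, was at 13.7, 11.3, 32.2 and 12 CPM and the processed pseudogene EIF3FP3 at 4.54, 7.82, 20.9 and 5.52 CPM.

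Matrix genes were highest in tumour 1 and lowest in tumour 4. COL1A1 was at 340, 114, 119 and 51.7 CPM, COL3A1 at 271, 83.3, 104 and 54.9 CPM and COL1A2 at 159, 61.6, 73.4 and 36.1 CPM, with tumour 1 above the other 3 in each. COL12A1 and COL6A1 were less spread, at 325 ± 70 and 148 ± 18.4 CPM. Of 18 fibroblast and matrix genes with a mean of at least 1 CPM, 14 were highest in tumour 1 and 13 lowest in tumour 4, against 21% and 23.4% of all genes, and the 22 genes summed to 1688, 1094, 1011 and 748 CPM. The fibroblast proteoglycans DCN and LUM averaged 0.511 and 0.0197 CPM. TNC, or tenascin C, was at 24.8, 9.47, 5.41 and 4.83 CPM. HMGA2, a chromatin protein of fetal tissues and many tumours, was also highest in tumour 1, at 87.2, 20.2, 44.2 and 27.3 CPM. Whether the collagen counts come from host or tumour cells was not tested.

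The summed levels of myeloid and lymphoid genes were lowest in tumour 1. PTPRC, or CD45, was at 2.64, 12.3, 15.8 and 7.43 CPM and CYBB, the phagocyte oxidase, at 7.48, 23.6, 28.4 and 19.1 CPM, with the same order of tumours. Of 9 myeloid genes with a mean of at least 1 CPM, 7 were highest in tumour 3, against 28.9% of all genes, and 6 were lowest in tumour 1 and 3 in tumour 4, against 36% and 23.4%. The 19 matched genes summed to 32.3, 68.7, 81.7 and 52.5 CPM. TYROBP, C1QA, C1QB, C1QC and MS4A7 had no count. DOCK2, CORO1A and CELF2, genes of blood cells, were at 7.96, 8.18 and 7.59 CPM in tumour 1 and at 46.1, 32 and 33.7 CPM in tumour 3. Lymphoid genes summed to 3.91, 11.5, 9.1 and 5.02 CPM, where 2 of the 4 members of at least 1 CPM were lowest in tumour 1 and 2 in tumour 4, with no count for CD3D and CD2; endothelial genes to 44.7, 55.1, 51.6 and 54.2 CPM, and globin and other red-cell genes to at most 2.18 CPM. The table lists human genes only, so these sums hold reads assigned to human genes and give no share of host cells.

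**Figure D4:**
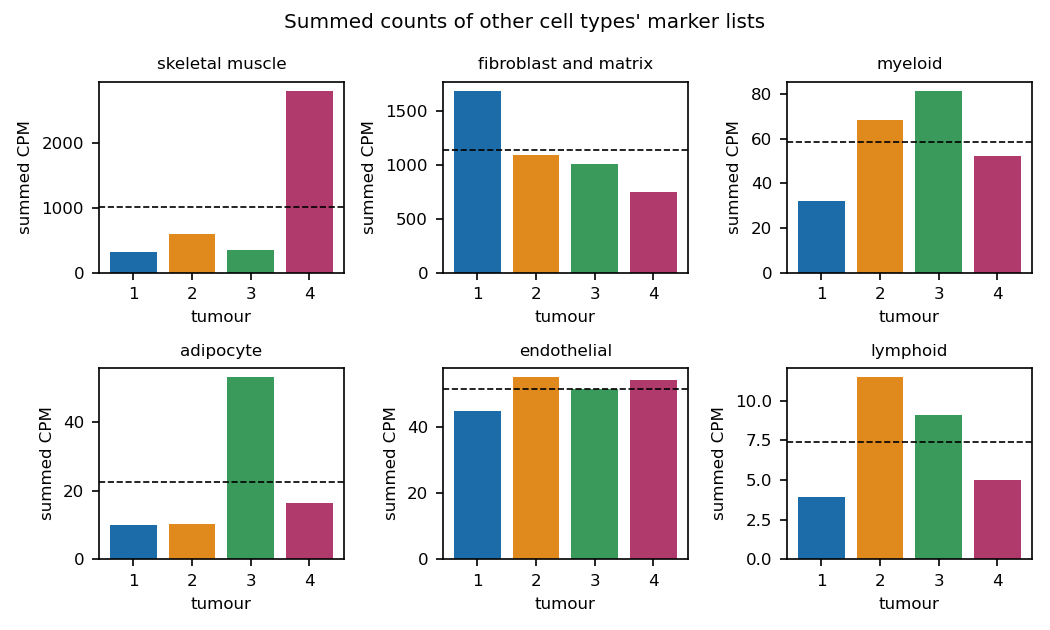
Summed CPM of marker lists of other cell types in each tumour, with bars from 0 and a dashed line at the mean of the 4 tumours. The muscle sum reaches 2806 CPM in tumour 4, the matrix sum 1688 CPM in tumour 1, the adipocyte sum 53.2 CPM in tumour 3 and the myeloid sum 81.7 CPM in tumour 3.

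Interferon-stimulated genes were mostly highest in tumour 2 and lowest in tumour 1, with tumour 4 also low. These genes are induced when interferon receptors activate transcription factors that bind an element of paired GAAA letters. All 33 averaged 10 CPM or more. All were also at 1 CPM or more in every tumour, against 61.6% of protein-coding genes. IFITM3, a membrane barrier to virus entry, led at 552, 775, 743 and 627 CPM. OAS3 was at 389, 673, 567 and 517 CPM and MX1 at 349, 535, 469 and 386 CPM. In IFITM3, OAS3 and MX1 the order was tumour 2, 3, 4 and 1 from high to low. Of the 33 genes, 29 were highest in tumour 2 and 30 lowest in tumour 1, against 20.4% and 36% of all genes, and their sum was 3995, 6295, 5787 and 4726 CPM. The median CV of the list was 19.8%, against 7.72% for all genes of at least 10 CPM. The myeloid sum was also lowest in tumour 1 but highest in tumour 3, and its part in the interferon values was not tested.

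The promoters of IFI44L and IFI27, members with wide spread, show the letters searched. The window runs from 250 bases before to 50 after the start of each gene, from RefSeq on GRCh38.p14, and capitals mark GAAANNGAAA on either strand. IFI44L lies at chr1:78620198-78620497 on the plus strand and IFI27 at chr14:94110486-94110785 on the plus strand.
IFI44L: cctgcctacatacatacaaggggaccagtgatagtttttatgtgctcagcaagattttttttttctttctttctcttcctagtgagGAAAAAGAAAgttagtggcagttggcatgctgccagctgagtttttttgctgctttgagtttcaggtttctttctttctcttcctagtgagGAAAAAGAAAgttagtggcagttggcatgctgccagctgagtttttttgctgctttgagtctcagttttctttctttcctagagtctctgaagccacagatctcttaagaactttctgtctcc
IFI27: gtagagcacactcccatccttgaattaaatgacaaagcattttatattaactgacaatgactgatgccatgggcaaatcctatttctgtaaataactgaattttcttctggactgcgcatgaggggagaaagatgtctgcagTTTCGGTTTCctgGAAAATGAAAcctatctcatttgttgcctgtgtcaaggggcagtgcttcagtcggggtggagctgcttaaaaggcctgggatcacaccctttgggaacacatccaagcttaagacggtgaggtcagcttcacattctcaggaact
IFI44L holds 2 matches within a repeated stretch, and IFI27 holds 2 adjacent ones, of which that read as TTTCGGTTTC lies on the other strand. IFI44L was at 56.5, 145, 132 and 72.8 CPM and IFI27 at 77.7, 191, 178 and 118 CPM, both lowest in tumour 1. The motif, chosen after these values were seen, was present in 16 of 26 interferon promoters in the table, or 61.5%, and in 1255 of 35116 promoters of all genes, or 3.57%. A match is a run of letters and not evidence of binding.

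Class I antigen presentation genes were mostly highest in tumours 2 and 3. Of 15 such genes, 7 were highest in tumour 2 and 7 in tumour 3, against 20.4% and 28.9% of all genes. Of the same 15, 11 were lowest in tumour 1 and 4 were lowest in tumour 4, against 36% and 23.4%. B2M, the light chain of class I molecules, was at 1071, 1235, 1302 and 1023 CPM and HLA-B at 477, 753, 783 and 512 CPM, with tumours 2 and 3 above tumours 1 and 4. HLA-E averaged 378 ± 46.8 CPM. Class I sequences are alike and differ between people, so reads can be split between them. Of 12 class II genes only HLA-DQA1 averaged over 10 CPM, at 4.54, 19.5, 25.4 and 14.8 CPM, while HLA-DRA averaged 0.0566 CPM and the class II activator CIITA 0.773 CPM. C3, the central complement component, was at 9.3, 47.9, 39.2 and 15.2 CPM.

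Hypoxia targets were highest in tumours 1 and 3 and lowest in tumour 4. Low oxygen stabilises HIF, which binds a core of ACGTG. NDRG1, a stress-response gene, was at 542, 441, 528 and 344 CPM, ERO1L at 274 ± 39 CPM, BHLHE40 at 215 ± 20 CPM and EGLN1, an oxygen-sensing hydroxylase, at 182 ± 11.7 CPM. Of 27 targets with a mean of at least 1 CPM, 16 were highest in tumour 1 and 19 lowest in tumour 4, against 21% and 23.4% of all genes, and the sum was 2898, 2484, 2791 and 2115 CPM. EGLN1 was an exception, at 171, 175, 188 and 196 CPM. CA9 and CA12, carbonic anhydrases much used as hypoxia markers, averaged only 0.139 and 0.471 CPM. Exons of other genes cover 38.5% of the exon bases of CA9 and 0% of those of CA12, so the CA9 level is less certain. Glycolytic genes, several of which are HIF targets, were highest in tumour 1 in 16 of 21 and lowest in tumour 4 in 12 of 21.

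Promoters of BNIP3, a mitophagy receptor, and ANKRD37 are shown as members with several matches; capitals mark ACGTG on either strand. BNIP3 lies at chr10:131981874-131982173 on the minus strand and ANKRD37 at chr4:185396591-185396890 on the plus strand, in the same kind of window.
BNIP3: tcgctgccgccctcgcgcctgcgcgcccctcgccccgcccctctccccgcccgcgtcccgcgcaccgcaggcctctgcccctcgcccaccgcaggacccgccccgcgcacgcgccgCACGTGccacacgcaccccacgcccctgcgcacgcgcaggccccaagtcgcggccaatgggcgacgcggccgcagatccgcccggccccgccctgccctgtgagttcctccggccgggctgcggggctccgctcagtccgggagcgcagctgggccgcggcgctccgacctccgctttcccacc
ANKRD37: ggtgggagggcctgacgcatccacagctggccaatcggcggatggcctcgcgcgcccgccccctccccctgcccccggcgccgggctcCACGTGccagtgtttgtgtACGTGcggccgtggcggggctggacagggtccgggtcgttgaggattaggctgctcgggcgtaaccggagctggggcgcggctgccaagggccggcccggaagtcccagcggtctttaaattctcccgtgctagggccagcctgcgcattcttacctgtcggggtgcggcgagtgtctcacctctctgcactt
BNIP3 was at 84.6, 52.3, 56.8 and 40.7 CPM and ANKRD37 at 19.2, 12.6, 14 and 13 CPM, both highest in tumour 1. The letters were present in 12 of 23 promoters of the list, or 52.2%, and in 21.4% of all 35116 promoters. In BNIP3 the 2 matches are the 2 strands of a palindrome, CACGTG.

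Ribosomal protein genes and small nucleolar RNAs were highest in tumour 1. Of the 78 ribosomal protein genes 65 were highest in tumour 1 and 55 lowest in tumour 2, against 21% and 22.8% of all genes, and their sum was 48007, 39096, 40909 and 43909 CPM. Small nucleolar and Cajal body RNAs took 0.763%, 0.56%, 0.473% and 0.646% of counts, and SNORD3A, the U3 RNA of ribosome processing, was at 946, 720, 430 and 643 CPM, lowest in tumour 3. SNHG3, a host transcript of small nucleolar RNAs, was at 2498, 707, 1778 and 2434 CPM, lowest in tumour 2. Processed pseudogenes of EEF1A1 ran the other way from their parent: 17 of 21 were highest in tumour 3, against 28.9% of all genes. They summed to 240, 354, 415 and 271 CPM, whereas EEF1A1 was lowest in tumour 2 and highest in tumour 1. The 8 pseudogenes of FTH1 were all highest in tumour 3, and so was FTH1 itself, at 44.4, 62, 72.6 and 41.5 CPM. Of 4 ACTB pseudogenes 3 were highest in tumour 3. Other families differed: of 9 GAPDH pseudogenes 6 were highest in tumour 4 and 2 in tumour 3, and of 2 HSP90AB1 pseudogenes 0 were highest in tumour 3.

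**Figure D5:**
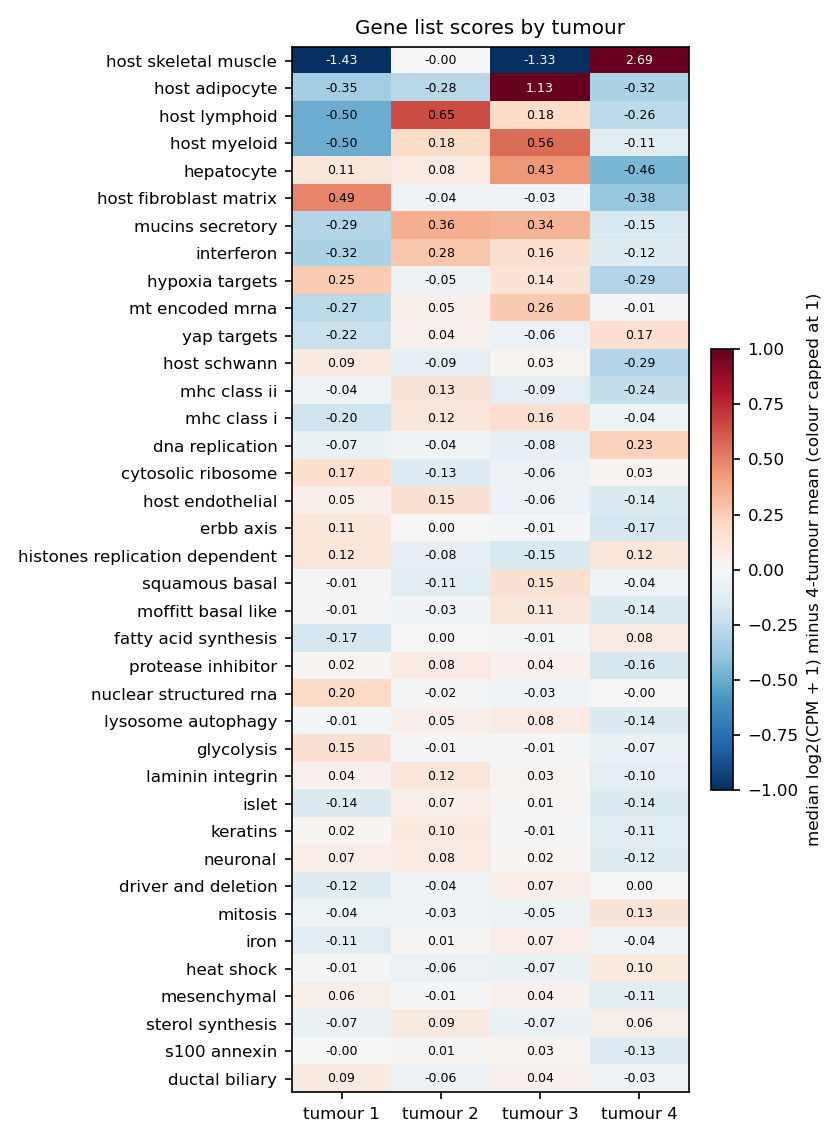
Score of each gene list in each tumour, the median over members of log2(CPM + 1) minus the mean of the 4 tumours, for lists whose score ranged over at least 0.15; colour is capped at 1. Muscle stands out at 2.69 in tumour 4 and adipocyte at 1.13 in tumour 3, and interferon is at -0.32 in tumour 1 and 0.28 in tumour 2.

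Small RNAs, pseudogenes and muscle genes were frequent among the genes that differed most in a single tumour. In tumour 1, RNU1-3 was at 67.1 CPM against 1.61, 1.01 and 0.996 CPM, ZBED2 at 11.3 CPM against 2.89 to 3.18 CPM and HSPA6, a stress-inducible HSP70, at 23.5 CPM against 3.91 to 6.69 CPM. MYH13, MYH8, MYH7, MYH1 and MYH6 had no count there, but were at only 0.0419 to 0.0838 CPM in tumour 3. Counts this low do not set tumour 1 apart from tumour 3. In tumour 2, RNU1-4 was at 22.6 CPM against 1.8 to 7.36 CPM, UQCRHL at 20.7 CPM against 6.55 to 8.22 CPM, the guidance cue SEMA5A at 12.3 CPM against 3.72 to 6.37 CPM and NNMT, nicotinamide N-methyltransferase, at 60.3 CPM against 18.9 to 37.7 CPM. ENSG00000186807 was at 12.7 CPM there against 5.71 to 7.25 CPM. Lowest there were TECRP1 at 0.282 CPM, BTF3P10 at 3.14 CPM, LINC01128 at 3.22 CPM and ANGPTL2 at 2.74 CPM. UQCRHL, RNU1-3 and RNU1-4 have near-identical copies, so their values depend on how such reads were assigned.

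In tumour 3, RN7SL4P, a copy of the signal recognition particle RNA, was at 476 CPM against 44.7 to 61.4 CPM. Lowest there were RNU1-4, PRKRIRP7 at 1.89 CPM, SNORA46 at 2.89 CPM against 8.01 to 12.6 CPM, SNORA65 at 5.11 CPM and SNORA13 at 6.58 CPM. In tumour 4, TNNT3, a fast troponin, was at 30.9 CPM against at most 1.85 CPM, PYGM, muscle glycogen phosphorylase, at 44.3 CPM against at most 3.1 CPM and ATP2A1, the fast-muscle calcium pump, at 137 CPM against at most 11.6 CPM. Lowest in tumour 4 were DHFRP1 at 0.689 CPM against 5.36 to 9.83 CPM, the growth factor BMP4 at 2.07 CPM against 5.07 to 7.59 CPM, DTNA at 2.34 CPM, ENSG00000161570 at 2.68 CPM and SNORD46 at 3.98 CPM.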

How the data were processed

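The deposited table holds raw counts by gene and tumour. The submitters' processing notes name STAR, HTSeq, limma and the human build hg19. Not given in the sources used here are the role and version of each tool, the annotation, the strand setting and how mouse reads were handled. RNA was isolated with Trizol for Illumina libraries, per the labels' protocols; any selection of poly(A) RNA is not given. Whether reads of a gene and of an overlapping antisense gene were counted apart is not known here.

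Of 57798 lines, 25 with a repeated identifier were removed. A symbol was missing for 24323 genes and 27 symbols had become dates; 19221 genes were named by identifier from GENCODE 29, and 5129, with 5.93% of counts, kept the identifier only. That annotation is on another build and was used only for names, gene types, exon lengths and overlaps. Coding TPM divides counts by the length of all annotated exons; genes with a length held 94% of counts. Only the 4 off-dox columns, with totals of 23855338 to 26885699, entered any step.

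CPM are counts per 1000000 of the column total. The CV is SD over mean of CPM; the counting CV is 1 over the square root of the mean count, so intervals and floors cover counting error only. List scores use members with a mean of at least 1 CPM: each member's log2(CPM + 1) was centred on its mean over the 4 tumours, and the median of these centred values was taken per tumour, for lists with at least 3 such members. Python 3.11.15, numpy 2.4.6 and pandas 2.3.3 were used, with edgeR 4.0.16 and DESeq2 1.42.0 in R 4.3.3 for alternative scalings. The spread measure was tried on simulated data for 9694 genes. Of 200 genes made with a CV of 80%, 73% came out at 50% or more, and of the other genes 0 did. Those others were all made with the same CV, lower than the common biological CV of 16.3% that edgeR gave for these tumours. The 0 follows from that setting and does not show how often genes of moderate spread reach 50%.

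The tumours and the 55 gene lists were chosen with earlier results of these data known. Genes named are the 20 most counted; up to 4 most counted members of each list described and members under 1 CPM in every tumour; the 20 with the largest CV above a mean of 10 CPM and the 10 with the smallest above 100 CPM; per tumour the 5 highest and 5 lowest relative to the others above a mean of 5 CPM; and cancer driver and foregut factor genes. Some genes that meet these rules are not reported here. Others, such as EPCAM, NRG1, SLC7A11 and HMGA2, were chosen after their values were seen. Promoters came from RefSeq on GRCh38.p14, matched by symbol: 23 of 30 hypoxia genes and 26 of 33 interferon genes had an entry.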

Additional observations from a re-analysis of the deposited data

Results flagged for a closer look

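A tumour was singled out where its gap to the nearest other tumour, divided by the range of the 4, was above Dixon's 95% critical value. Chance alone gives this in about 1 of 20 groups. It was met by 7 of 55 list sums and by 43 of 283 named genes. The genes were partly named for their spread and are not independent, so these counts are no test against chance.

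Muscle genes made up the largest block, all in tumour 4. The muscle list summed to 2806 CPM there, with CKM at 145 CPM, MYH4 at 196 CPM, ATP2A1 at 137 CPM, MYH1 at 141 CPM, MYH2 at 61.2 CPM, PYGM at 44.3 CPM and ACTA1 at 268 CPM. ACTN3 was at 36.4 CPM, RYR1 at 62.1 CPM, ACTC1 at 37.7 CPM, NEB at 154 CPM and TTN at 1210 CPM. MYL3 was at 1.3 CPM, MYH13 at 28.4 CPM, MYH8 at 22.5 CPM, MYH7 at 23.7 CPM and TNNT3 at 30.9 CPM.

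Tumour 4 also stood apart for proliferation and chaperones. The replication list summed to 2800 CPM, the mitosis list to 4110 CPM and the heat shock list to 10120 CPM. MCM4 was at 353 CPM, RRM1 at 208 CPM, TOP2A at 437 CPM and CCNB1 at 291 CPM, each above the other 3 tumours. It was low for the laminin and integrin list at 7718 CPM, for ITGA3 at 2489 CPM and for ENSG00000161570 at 2.68 CPM. OVOL1 and FOXC2, each at 0.0383 CPM there, rest on a lone count.

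Tumour 3 was high for the adipocyte list at 53.2 CPM, with GPD1 at 18.6 CPM, FABP4 at 5.11 CPM, PLIN1 at 4.49 CPM and DGAT2 at 32.2 CPM. RN7SL4P at 476 CPM and ME2 at 22 CPM were also high there, and HNF4A at 0.0419 CPM rests on a lone count.

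Tumour 1 was high for RN7SK at 36699 CPM, RNU1-3 at 67.1 CPM, HSPA6 at 23.5 CPM, ZBED2 at 11.3 CPM, NRG1 at 11.2 CPM and ERBB4 at 2.38 CPM. It was low for SLC7A11 at 241 CPM, ARID1A at 76.4 CPM and ARID1B at 105 CPM. TMEM59 at 104 CPM also met the criterion there, but its CV of 0.902% is below its counting CV of 1.93%, so that gap is within counting error. Tumour 2 was high for the keratin list at 1631 CPM and UQCRHL at 20.7 CPM.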

How the results depend on the processing

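The number of genes at 1 CPM or more in every tumour, 14772, became 16926 at 0.5 CPM and 12813 at 2 CPM. The number of genes that together hold 50% of mean counts, 852, fell to 8 when counts were divided by length, where short structured RNAs dominate. The share of the 20 most counted genes, 16.8%, became 5.46% without mitochondrial and noncoding genes and 54.7% per length. The 40 genes with a CV of at least 50% became 81 above a mean of 5 CPM, 21 above 20 CPM, 374 above 1 CPM and 16 by the biological CV of edgeR; without 1 tumour they numbered 30 to 63, the most without tumour 2. The range of list scores between tumours became 0.51 for ductal genes, 0.41 for foregut factors and 0.13 for ERBB genes with members of at least 10 CPM only. With TMM scaling it became 0.03 for the citric acid cycle, 0.19 for amino acid stress genes, 0.05 for redox genes, 0.05 for immediate early genes and 0.10 for iron genes. The highest and lowest tumour was the same under column totals, TMM and DESeq2 size factors for 38 of 51 scored lists, including those whose tumour order the text gives for muscle, fat, matrix, myeloid, interferon, hypoxia and replication genes. The cause of these moves was not tested beyond what each setting changes by construction. No paired analysis was possible because the 4 tumours form a single group. Dixon's critical value was used only to single out tumours, and no p-value is given. With 4 tumours of 1 line, spread between lines, hosts or treatments was not measured, and genes under about 10 CPM are limited by counting error.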
